A study of Homo sapiens with 6 samples.

Results

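A set of 39 genes for proteins that hepatocytes release into plasma, together with liver enzymes of amino acid breakdown, was followed in RNA sequencing of Hep3B cells, a human hepatocellular carcinoma line. The members were the genes of the deposited table whose symbols stood in a fixed list of carriers, protease inhibitors, acute-phase proteins, other secreted proteins, amino acid enzymes and 1 cell-surface proteoglycan. Of the 39 genes, 27 had an entry among the 27009 genes of the table. The other 12 (AFP, GC, RBP4, SERPINA7, HP, ITIH1, ITIH3, SAA4, CRP, APCS, HRG and GPC3) were not analysed here. The table held 0 genes that were at 0 in every library, so a gene without a single read would have had no entry.

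All 6 libraries came from Hep3B cells in which PD-L1 had been knocked out. The 3 vector libraries carried the empty lentiviral vector, and the 3 nPD-L1 libraries carried PD-L1 with its residues LCL changed to ACA, driven by a CMV promoter and kept in the nucleus. The study describes the libraries as independently sequenced samples. Neither it nor the labels say that those of a group came from separate cultures, so p values measured only the spread between these libraries. The comparison asked whether nPD-L1 changed the expression of liver plasma protein genes, and at what level Hep3B cells expressed them at baseline.

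The liver makes most of the proteins dissolved in plasma, and their genes are kept active by liver-enriched factors such as HNF4A and CEBPA. During inflammation, IL-6 acting through gp130 and STAT3, and IL-1 acting through NF-kB and CEBP factors, raise the acute-phase genes such as SAA1, CRP and ORM1 and lower others such as ALB and TTR. Carriers bind hormones, metals, heme or lipids, while serpins and inter-alpha-trypsin inhibitors hold proteases in check. Hep3B cells are commonly used in culture to study this response.

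The libraries held 17427519 to 22253295 reads on genes. The values were scaled reads, that is, reads on a gene divided by a factor for each library. Their sums were 18082164 to 19682128. A count of 0 in 1 library allows up to 3 reads, and limits and intervals on reads cover counting error only, since reads were not counted as molecules. Vector replicate 2 stood farthest from its group, with 1278 and 1733 genes more than 2-fold apart from vector replicates 1 and 3, against 934 between those 2. The targeted gene CD274, which encodes PD-L1, had 28.3, 38.4 and 47.8 scaled reads in vector replicates 1, 2 and 3, and 16.8, 19.2 and 30.9 in replicates 1, 2 and 3 of nPD-L1. The added PD-L1 was thus not seen as more CD274 reads, and the directions below follow the labels alone.

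The cell type label was checked against markers, and several went against it. The hepatocyte list held 12 genes, of which 11 had an entry and APOC3 had none. At most 3 reads in every library were found for 6 of these 11 (ALB, TTR, APOA1, APOA2, APOB and TF). ALB and TTR are themselves among the 27 genes, so these 2 are described here and not tested as markers. AFP and GPC3, named members that were not on the marker lists, had no entry at all, as stated above. KRT8 and KRT18, the keratins of hepatocytes and of many other epithelia, were high, and FGB, a fibrinogen chain, had 962 to 1540 scaled reads. APOH had 140 to 308 scaled reads and HNF4A 6.24 to 51.6. Of the hepatocyte markers 5 were tested, and HNF4A alone was called, higher in nPD-L1 (log2 fold change 1.91, adjusted p = 0.0232 in limma). KRT7, a biliary keratin, had 24578 to 37356 scaled reads. The biliary list held 5 genes, of which 4 had an entry and KRT19, another keratin, had none. The summed level of these 4 was 29909 to 39066 scaled reads in the vector libraries and 28091 to 39441 in the nPD-L1 libraries, with 0 of 4 called. KRT7 made up most of that sum. Over all libraries SPP1 had 1181 to 4111 scaled reads, SOX9 383 to 568 and EPCAM only 10.1 to 26.3. The 3 endothelial markers with an entry, of 5 chosen, together had 0.965 to 9.08 scaled reads per library, with 0 tested. CDH5 and KDR had no entry. The 3 macrophage and leukocyte markers with an entry, of 6 chosen, together had 4.04 to 18.1 scaled reads per library, with 0 called. CD68, CD163 and CD3E had no entry. Among 6 stellate and fibroblast markers chosen, 5 had an entry and COL1A2 had none. COL1A1 rose by 2.84 on the log2 scale (limma, adjusted p = 7.99e-06). The list summed to 231.8 to 306.1 scaled reads in vector and 656.4 to 706.1 in nPD-L1. ACTA2 and LUM, the other 2 tested, had log2 fold changes of -0.09 and 0.10 (adjusted p = 0.895 and 0.886 in limma). DCN and PDGFRB had at most 8 reads in any library. COL1A1 made up most of the difference in that sum. The part of these levels in the results below was not tested. The libraries are therefore called by their labels.

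**Figure D1:**
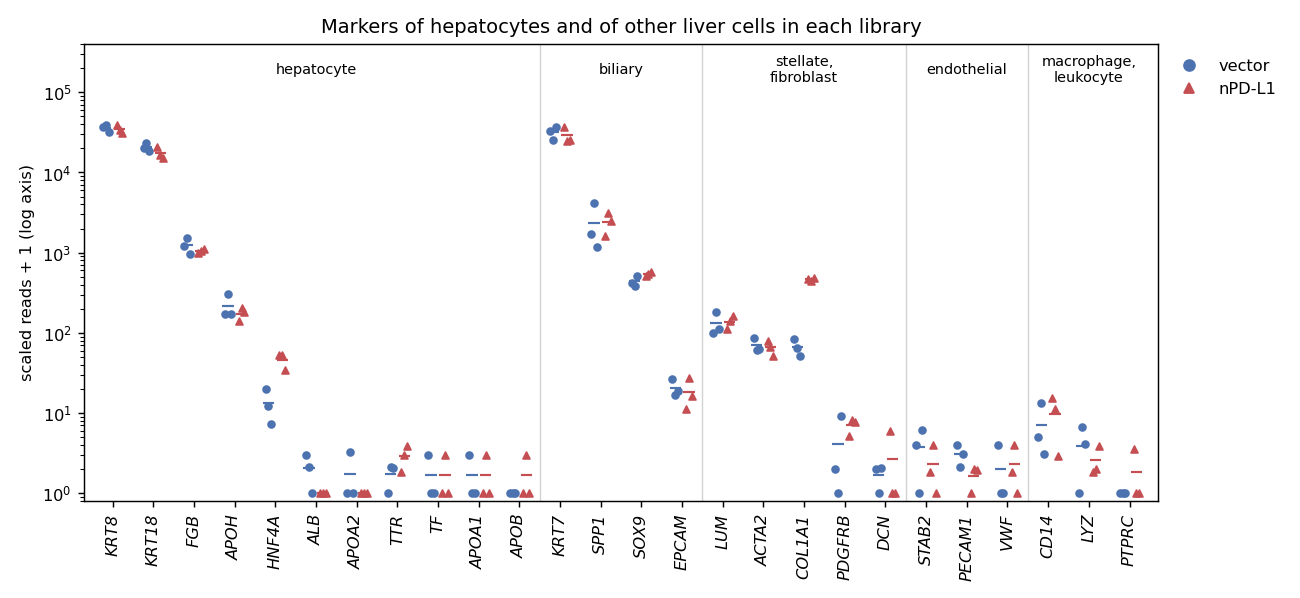
Scaled reads + 1 on a log axis for each marker gene with an entry, by cell type, in 3 vector libraries (blue circles) and 3 nPD-L1 libraries (red triangles). Short lines are group means. KRT8, KRT18 and KRT7 lie at the top of the plot, while ALB, TTR, APOA1, APOA2, APOB and TF lie at its floor in both groups.

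Promoters of 4 of the genes are shown, because each holds a match to the motif of STAT factors, which carry the IL-6 signal to acute-phase genes, while their levels here differed. SERPINA6, CPS1 and VTN were tested, and ITIH4 had at most 1 read in any library. The RefSeq windows run from 250 bases before to 50 bases after the start site in GRCh38.p14, 300 bases each, read 5′ to 3′ on the strand of the gene. SERPINA6 is at chr14:94323287-94323586 on the - strand, CPS1, of whose 3 start sites the one with the motif is given, at chr2:210477435-210477734 on the + strand, VTN at chr17:28370258-28370557 on the - strand, and ITIH4 at chr3:52830623-52830922 on the - strand. Capitals mark TTCNNNGAA, which reads the same on both strands.
SERPINA6: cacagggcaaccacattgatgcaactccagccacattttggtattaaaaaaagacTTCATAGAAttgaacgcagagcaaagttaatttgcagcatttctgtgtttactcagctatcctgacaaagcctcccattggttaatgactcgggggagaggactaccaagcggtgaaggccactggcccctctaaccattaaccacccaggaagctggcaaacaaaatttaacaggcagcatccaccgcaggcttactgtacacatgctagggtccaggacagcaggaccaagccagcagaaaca
CPS1: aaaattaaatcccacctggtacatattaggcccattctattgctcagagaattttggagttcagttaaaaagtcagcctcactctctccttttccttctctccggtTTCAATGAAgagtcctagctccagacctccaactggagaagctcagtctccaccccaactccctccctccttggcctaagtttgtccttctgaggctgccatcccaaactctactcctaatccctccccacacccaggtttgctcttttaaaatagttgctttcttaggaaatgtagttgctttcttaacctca
VTN: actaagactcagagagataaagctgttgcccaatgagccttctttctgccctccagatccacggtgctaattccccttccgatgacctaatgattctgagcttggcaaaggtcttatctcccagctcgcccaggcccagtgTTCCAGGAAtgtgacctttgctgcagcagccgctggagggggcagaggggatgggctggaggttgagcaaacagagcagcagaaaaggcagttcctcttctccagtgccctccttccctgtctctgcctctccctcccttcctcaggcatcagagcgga
ITIH4: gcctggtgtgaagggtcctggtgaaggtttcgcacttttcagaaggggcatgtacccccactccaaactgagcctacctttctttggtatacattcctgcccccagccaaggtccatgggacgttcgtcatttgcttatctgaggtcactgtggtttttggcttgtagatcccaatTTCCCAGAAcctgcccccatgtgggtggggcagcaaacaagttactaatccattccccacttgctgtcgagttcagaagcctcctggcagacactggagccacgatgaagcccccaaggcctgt

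Of the 27 genes, 19 had a promoter in this set, with 25 windows between them, and 8 had none (CP, SAA1, SAA2, LBP, ORM2, TTR, ITIH2 and TAT). The shares below do not cover these 8, which include acute-phase genes. TTCNNNGAA occurred in 7 of 25 windows (28.0%) against 7.66% of all 35116 windows of the same length, those of A1BG, AGT, CPS1, ITIH4, LRG1, SERPINA6 and VTN. TATAAA occurred in 5 of 25 windows (all windows 11.5%), those of AGT, ARG1, FETUB, ORM1 and TDO2. Both strands were searched and matches of different motifs were allowed to overlap. A match is a description of letters only. The 4 genes shown had mean levels in vector of 31.3 (SERPINA6), 13.7 (CPS1), 7.38 (VTN) and 0 (ITIH4) scaled reads per kilobase.

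Most of the plasma protein genes were at or near the floor in both groups. Of the 27 genes, 10 had at most 3 reads in every library (ALB, TTR, ORM1, ORM2, SERPINA3, ITIH4, AHSG, FETUB, A1BG and ARG1), and 7 more had a maximum of over 3 and at most 15 reads (HPX, SERPINA10, SAA2, LBP, LRG1, AGT and TAT). The remaining 10 reached 10 scaled reads in at least 3 libraries and were tested. These 10, or 37.0% of 27, compare with 79.4% of 15943 protein-coding genes in the table. Only CP and CPS1 had a mean above 100 scaled reads in vector. Per kilobase of the deposited gene length, 25 of the 27 genes lay below the median protein-coding gene of the table in vector, and CP and SAA1 lay above it. That length equalled all annotated exon bases together for CP, VTN, ARG1, A1BG and TDO2. It can exceed the length of a single transcript, so levels per kilobase are approximate. The 27 genes together made up 0.00527% to 0.00626% of a vector library and 0.00490% to 0.00651% of an nPD-L1 library, and CP alone was 51.9% to 61.3% of that. A bulk library cannot tell fewer expressing cells from less RNA per cell.

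**Figure D2:**
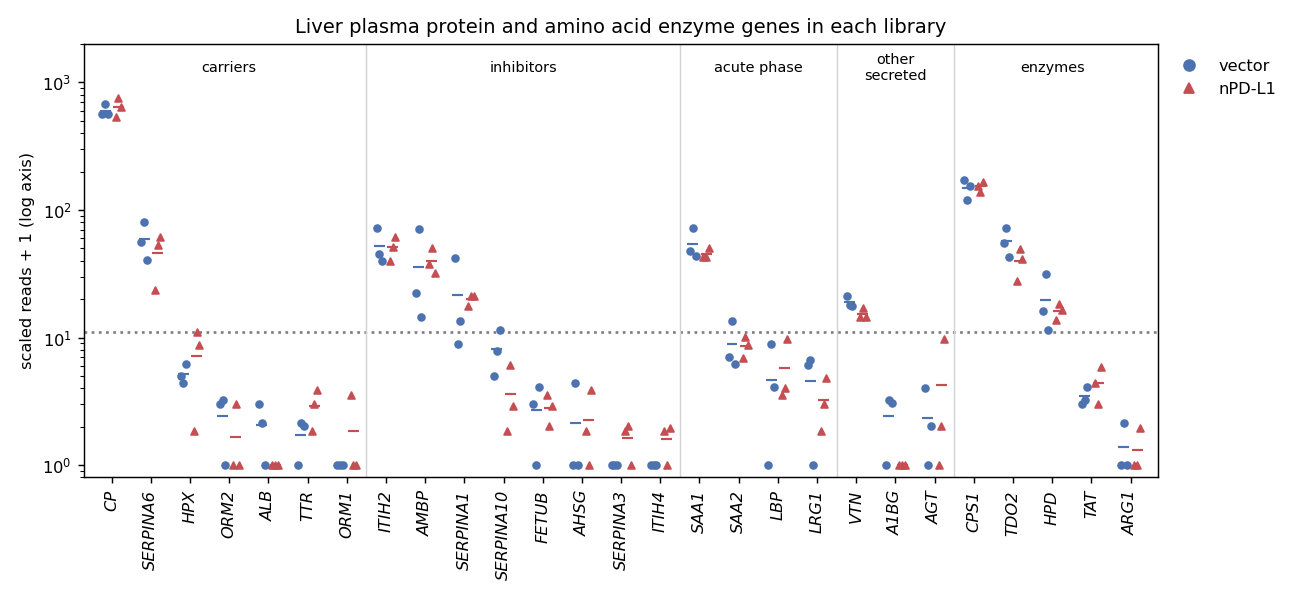
Scaled reads + 1 on a log axis for the 27 genes, grouped by role, in 3 vector libraries (blue circles) and 3 nPD-L1 libraries (red triangles). Short lines are group means and the dotted line marks the minimum of 10 scaled reads used for testing. CP and CPS1 stand above 100 scaled reads in every library, and 17 genes lie mostly below the dotted line.

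None of the 10 genes tested passed the test for a change with nPD-L1. In limma on log2(scaled reads + 1), 0 of 10 were called higher and 0 lower at an adjusted p under 0.05, where 4.04% of the 15076 genes tested were called higher and 0.922% lower. Calls in either direction made up 4.96% of all genes tested. At an unadjusted p under 0.05 the count was also 0 of 10, against 14.2% of all genes tested. edgeR and DESeq2 on the recovered reads called 0 of 10 as well. The adjusted p values lay between 0.506 and 0.996. Of the 10 genes, 4 had a log2 fold change above 0 and 6 below, with a median of -0.09 beside -0.02 over all genes tested. With 3 libraries a group this does not show that the genes stayed the same. The 95% interval excluded a 2-fold change in either direction for 4 genes (CP, ITIH2, SAA1 and CPS1), and for the other 6 a 2-fold change in at least one direction could not be told from none.

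**Figure D3:**
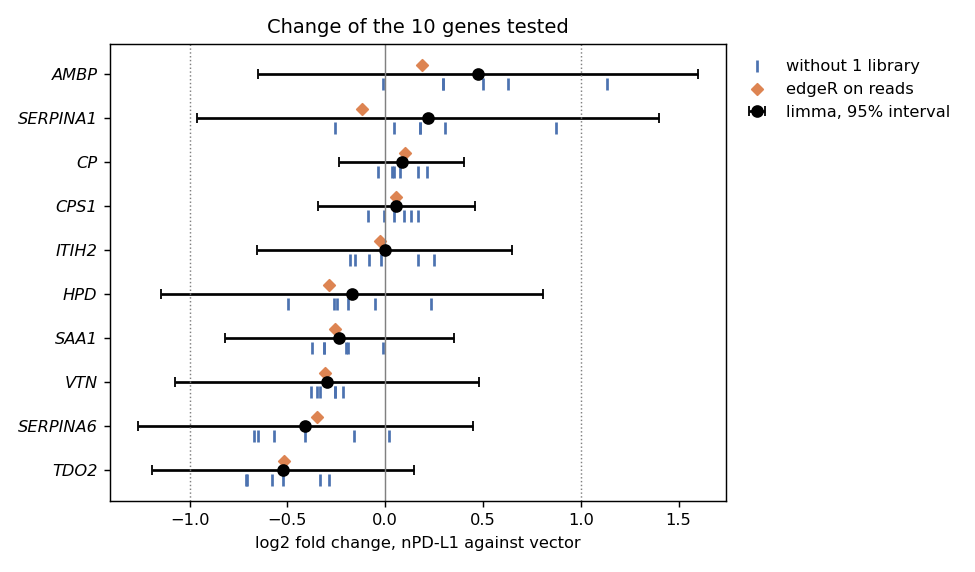
Log2 fold change of nPD-L1 against vector for the 10 genes tested, on the log2(scaled reads + 1) scale. Black points and bars are limma estimates with 95% intervals, blue ticks the estimates without 1 library, orange diamonds edgeR on reads, and dotted lines 2-fold changes. Every interval crosses 0, from AMBP at 0.47 to TDO2 at -0.52.

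Among the carriers, CP, which encodes the copper-bearing plasma ferroxidase ceruloplasmin, was the most abundant gene of the set. It had 567, 673 and 559 scaled reads in vector replicates 1, 2 and 3, and 530, 747 and 641 in nPD-L1 replicates 1, 2 and 3. The groups overlapped, and nPD-L1 held both the lowest and the highest library. Its level per kilobase in vector, 82.2 scaled reads, exceeded that of 57.3% of protein-coding genes. The log2 fold change was 0.08 (95% interval -0.23 to 0.40, adjusted p = 0.841 in limma), or between 0.850-fold and 1.32-fold. CP (ENSG00000047457) lies at chr3:149162410-149222055 of GRCh38 on the - strand, and 1418 of its exon bases (19.4%) are shared with HPS3 on the other strand, which had a mean of 1188 scaled reads in vector and 1209 in nPD-L1. The library kit named in the labels does not mark strand, so reads in the shared bases cannot be told apart.

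SERPINA6 encodes corticosteroid-binding globulin, the plasma carrier of cortisol. It had 55.5, 79.1 and 39.5 scaled reads in vector and 22.7, 52.6 and 60.8 in nPD-L1, so the groups overlapped. nPD-L1 replicate 1, at 27 reads, was the lowest library. The log2 fold change was -0.41 (95% interval -1.26 to 0.45, adjusted p = 0.705 in limma), and without nPD-L1 replicate 1 it was 0.019. Its promoter, with 1 STAT match, is the first of those shown above.

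The other carriers had too few reads to be tested. ALB encodes serum albumin, the most abundant protein of adult plasma, and had 2, 1 and 0 reads in vector replicates 1, 2 and 3 and 0 in every nPD-L1 library. TTR, the carrier of thyroxine and of retinol-binding protein, had 0, 1 and 1 reads in vector and 1, 2 and 3 in nPD-L1. HPX, which binds free heme, had 4.04, 3.39 and 5.20 scaled reads in vector and 0.840, 10.1 and 7.72 in nPD-L1, and the groups overlapped. ORM1 and ORM2, the orosomucoids or acid glycoproteins that bind basic drugs, summed to 0 and 4 reads over the vector libraries and to 3 and 2 over the nPD-L1 libraries. Their longest open reading frames of 606 bases were 94.9% identical, so reads could have been split between them.

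Of the protease inhibitors, 3 of the 8 genes with an entry were tested and 0 were called. ITIH2, a heavy chain of the inter-alpha-trypsin inhibitor that is passed on to hyaluronan, had 70.7, 44.0 and 38.5 scaled reads in vector and 38.7, 50.6 and 60.8 in nPD-L1. The nPD-L1 libraries lay wholly within the vector range, and the log2 fold change was -0.004 (95% interval -0.65 to 0.65, adjusted p = 0.996 in limma).

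AMBP encodes a precursor that is cut into alpha-1-microglobulin and bikunin, the light chain of the same inhibitor. It had 21.2, 70.0 and 13.5 scaled reads in vector and 37.0, 49.6 and 30.9 in nPD-L1. Vector replicate 2 was the highest of all 6 libraries and the other 2 vector libraries were the lowest. The 62 reads of vector replicate 2 (exact Poisson 95% interval 47.5 to 79.5) and the 13 of vector replicate 3 (6.92 to 22.2) differed by more than counting error, and the vector range was 5.18-fold. The log2 fold change was 0.47 (95% interval -0.65 to 1.60, adjusted p = 0.735 in limma). Without vector replicate 2 it was 1.13 (unadjusted p = 0.0071, adjusted p = 0.0861 in limma), and without vector replicate 3 it was -0.011, and its adjusted p lay between 0.0861 and 0.994 over all alternatives.

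SERPINA1, the gene of alpha-1-antitrypsin, which inhibits neutrophil elastase, had 41.4, 7.91 and 12.5 scaled reads in vector and 16.8, 20.2 and 20.3 in nPD-L1. Here vector replicate 1 was the high library and vector replicate 2 the low one, unlike in AMBP, and the 3 nPD-L1 libraries lay close together between them. The log2 fold change was 0.22 (95% interval -0.96 to 1.40, adjusted p = 0.886 in limma), while edgeR and DESeq2 on reads gave -0.12 each. The mean over libraries was 20.6 ± 18.2 in vector and 19.1 ± 1.98 in nPD-L1 (SD, n = 3 each).

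SERPINA10, an inhibitor of coagulation factor Xa, had 4.04, 6.78 and 10.4 scaled reads in vector and 0.840, 5.06 and 1.93 in nPD-L1, or 20 reads against 8 in all, and was too low to be tested. SERPINA3, the gene of alpha-1-antichymotrypsin and a strong acute-phase gene in liver, had 0 reads in all vector libraries and 1, 1 and 0 in nPD-L1. ITIH4, an inhibitor family member that is itself an acute-phase protein, had 0 reads in vector and 1, 0 and 1 in nPD-L1. AHSG and FETUB, the fetuins, lie side by side within 40.2 kb of chromosome 3, and both were near the floor, with 3 and 5 reads over the vector libraries and 4 and 6 over the nPD-L1 libraries.

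The serpins lie together on chromosome 14, within 343.6 kb from 94280455 to 94624055 of GRCh38, where 5 protein-coding genes had an entry. Their mean vector levels in order along the chromosome were 7.07 (SERPINA10), 58.0 (SERPINA6), 20.6 (SERPINA1), 1.02 (SERPINA5) and 0 (SERPINA3) scaled reads. In nPD-L1 they were 2.61, 45.4, 19.1, 1.78 and 0.617 in the same order. SERPINA6 and SERPINA1 were tested, and the other 3 were too low to be. Divided by length, SERPINA6 had 31.3 scaled reads per kilobase in vector, SERPINA1 had 4.20 and SERPINA10 had 1.29.

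Among the acute-phase genes, SAA1, a serum amyloid A of high-density lipoprotein that rises steeply in inflammation, was the one gene of 4 with enough reads to be tested. It had 46.4, 71.2 and 42.6 scaled reads in vector and 42.0, 41.5 and 49.2 in nPD-L1, and the groups overlapped. For its short gene length this was the second highest level of the set, 67.1 scaled reads per kilobase in vector, above 53.3% of protein-coding genes. The log2 fold change was -0.23 (95% interval -0.82 to 0.35, adjusted p = 0.746 in limma). SAA2, its neighbour within 30.8 kb on chromosome 11, had 6.06, 12.4 and 5.20 scaled reads in vector and 5.88, 9.10 and 7.72 in nPD-L1. The longest open reading frames of SAA1 and SAA2, 369 bases each, were 97.0% identical, so their separate levels are uncertain. In both genes vector replicate 2 was the highest library.

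LBP, which hands bacterial lipopolysaccharide to CD14, had 0, 7.91 and 3.12 scaled reads in vector and 2.52, 3.03 and 8.68 in nPD-L1. LRG1, a leucine-rich glycoprotein induced by IL-6, had 5.05, 5.65 and 0 in vector and 0.840, 2.02 and 3.86 in nPD-L1. Both lay within a few reads of the floor, and neither was tested.

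Of the other secreted proteins, VTN encodes vitronectin, an adhesion protein of plasma and matrix. It had 20.2, 16.9 and 16.6 scaled reads in vector and 13.4, 16.2 and 13.5 in nPD-L1. Every nPD-L1 library was below every vector library, the 1 case among the 10 genes tested in which the groups did not overlap, against 20.6% of all genes tested in either direction and 8.54% downwards. The gap between the nearest libraries was under 1 read, and the log2 fold change was -0.30 (95% interval -1.08 to 0.48, adjusted p = 0.755 in limma). AGT, the precursor of angiotensin, had 3.03, 0 and 1.04 scaled reads in vector and 0, 1.01 and 8.68 in nPD-L1. A1BG, a plasma glycoprotein of the immunoglobulin superfamily, had 0, 2 and 2 reads in vector and 0 in all nPD-L1 libraries, and shares 19.5% of its exon bases with its antisense gene A1BG-AS1.

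Of the 5 amino acid enzymes, 3 were tested and 0 called. CPS1, the mitochondrial carbamoyl phosphate synthetase that starts the urea cycle, had 169.6, 118.6 and 153.8 scaled reads in vector and 153.8, 136.5 and 165.9 in nPD-L1. The nPD-L1 libraries lay within the vector range and the log2 fold change was 0.06 (95% interval -0.34 to 0.46, adjusted p = 0.917 in limma), or between 0.788-fold and 1.37-fold. Its deposited gene length is large, 10775 bases, and per kilobase of it the 13.7 scaled reads in vector were below SERPINA6 and AMBP. ARG1, the arginase that ends the same cycle, had 1 read in 1 vector library and 1 read in 1 nPD-L1 library.

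TDO2, the heme enzyme that opens the tryptophan to kynurenine pathway in liver, had 54.5, 71.2 and 41.6 scaled reads in vector and 26.9, 48.5 and 40.5 in nPD-L1. The groups overlapped, with the 2 highest libraries in vector and the 2 lowest in nPD-L1. Its log2 fold change, -0.52, was the lowest of the 10 (95% interval -1.19 to 0.15, adjusted p = 0.506 in limma). With each library left out it ranged from -0.29 without nPD-L1 replicate 1, and -0.33 without vector replicate 2, to -0.71 without vector replicate 3 (for the last, unadjusted p = 0.046, adjusted p = 0.264 in limma, the lowest of a range that reached 0.743 over all alternatives). HPD, which turns hydroxyphenylpyruvate into homogentisate in tyrosine breakdown, had 15.1, 30.5 and 10.4 scaled reads in vector and 12.6, 17.2 and 15.4 in nPD-L1. Vector replicate 2 was again the highest, and the log2 fold change was -0.17 (95% interval -1.15 to 0.81, adjusted p = 0.896 in limma) with it and 0.24 without it. TAT, tyrosine aminotransferase, a glucocorticoid-induced liver gene and the step before HPD, had 2.02, 2.26 and 3.12 scaled reads in vector and 3.36, 2.02 and 4.82 in nPD-L1.

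Within vector, replicate 2 was the highest library for 6 of the 10 genes tested (SERPINA6, CP, AMBP, SAA1, TDO2 and HPD). This library also stood farthest from its group over all genes. The share of all genes tested with replicate 2 highest was not taken, so the count is not read as a trait of these genes. Without it the log2 fold change of SAA1 went from -0.23 to -0.012, that of SERPINA6 from -0.41 to -0.16, that of TDO2 from -0.52 to -0.33 and that of CP from 0.08 to 0.17, while AMBP went to 1.13 and HPD to 0.24. In limma 0 of the 10 genes was called at an adjusted p under 0.05 with it or without it, and the median of the 10 genes was -0.09 in both cases.

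Inputs to the acute-phase response were expressed, and 4 of them were called. All 21 genes of a list of cytokines, receptors, kinases and liver factors that feed it were tested, 3 were called higher and 1 lower (limma, adjusted p under 0.05), where 4.04% of all genes tested were called higher and 0.922% lower. Of the 21, 17 had a log2 fold change above 0, beside 46.7% of all genes tested, and their median was 0.20 beside -0.02 over all genes tested. IL6, the main cytokine inducer of the response, fell from 52.5, 82.4 and 23.9 scaled reads in vector to 4.20, 5.06 and 11.6 in nPD-L1 (log2 fold change -2.71, 95% interval -3.85 to -1.57, adjusted p = 0.0106 in limma). HNF4A, a nuclear receptor of hepatocytes that drives many liver genes, rose from 19.2, 11.3 and 6.24 to 51.3, 51.6 and 33.8 (log2 fold change 1.91, 95% interval 0.99 to 2.83, adjusted p = 0.0232 in limma). In neither gene did the groups overlap, but the lower group of each had few reads. IL6 had 5, 5 and 12 reads in nPD-L1 replicates 1, 2 and 3, and HNF4A had 19, 10 and 6 in vector replicates 1, 2 and 3.

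CEBPB and NFKB1, factors downstream of IL-6 and IL-1, rose by less. CEBPB had 3079 ± 371 scaled reads in vector and 4448 ± 509 in nPD-L1 (SD, n = 3 each), a log2 fold change of 0.53 (adjusted p = 0.0328 in limma). NFKB1 had 1160 ± 94.9 and 1623 ± 55.6 (SD, n = 3 each), a log2 fold change of 0.49 (adjusted p = 0.0166 in limma). These 4 calls were each lost in some fits that left out a library, with adjusted p values over all alternatives of 8.39e-06 to 0.0677 for IL6 (lost without vector replicate 1 or nPD-L1 replicate 1), 0.00123 to 0.134 for HNF4A (lost without any 1 of the nPD-L1 replicates), 0.00118 to 0.166 for CEBPB (lost without vector replicate 1 or 3 or nPD-L1 replicate 1 or 2) and 0.000677 to 0.113 for NFKB1 (lost without vector replicate 1 or any 1 of the nPD-L1 replicates). STAT3 and IL6ST, the transducers of IL-6, were at 2674 ± 87.5 and 4000 ± 279 scaled reads in vector (SD, n = 3 each) and were not called (adjusted p = 0.827 and 0.757 in limma). CEBPD, another CEBP factor of the list, went the other way from CEBPB, and its groups did not overlap. Its log2 fold change was -1.22 (95% interval -2.06 to -0.37), and it was not called (adjusted p = 0.141 in limma).

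**Figure D4:**
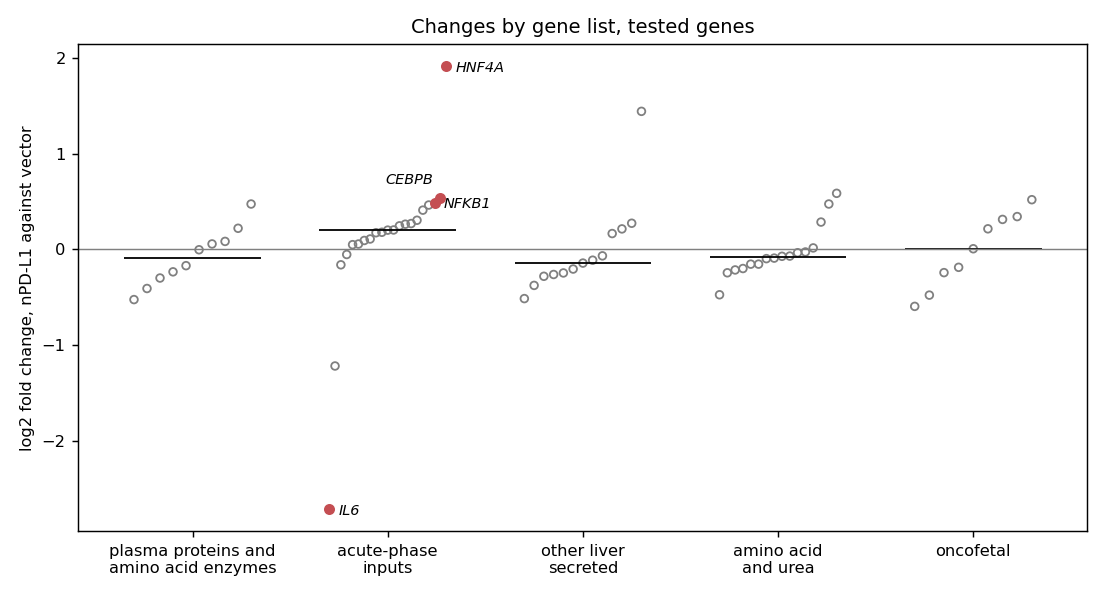
Log2 fold change of nPD-L1 against vector for each tested gene of 5 lists, 1 circle per gene in order of size, with the median of each list as a black line. Filled red circles are the 4 genes called in limma at an adjusted p under 0.05, IL6, HNF4A, CEBPB and NFKB1, and open grey circles are genes not called.

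In 3 further lists of liver genes, 0 genes were called in limma, where 4.96% of all genes tested were called in either direction. With so few genes tested, 0 calls say little. Of 28 other secreted liver proteins, 24 had an entry, 13 were tested, and their median log2 fold change was -0.14. FGA, FGB and FGG, the fibrinogen chains, which are also acute-phase proteins, were abundant, with 2058 to 3286, 962 to 1540 and 658 to 1129 scaled reads over the vector libraries and 1861 to 2263, 995 to 1120 and 723 to 849 over the nPD-L1 libraries. TF, A2M, AZGP1, PZP and PLG, by contrast, had at most 3 reads in every library. Of 27 genes of amino acid breakdown and the urea cycle, 16 were tested, with a median of -0.08, among them KYNU, the kynureninase downstream of TDO2, at 10363 ± 2485 scaled reads in vector and 9701 ± 776 in nPD-L1 (SD, n = 3 each). Of 13 oncofetal genes, 9 were tested, with a median of 0.01.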

How the data were processed

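RNA of PD-L1-knockout Hep3B cells with vector (3 libraries) or nPD-L1 (3 libraries) was extracted with TRIzol, prepared with a NEBNext Ultra RNA kit and sequenced by a company. The submitters' processing notes name CASAVA, HISAT2 (version 2.0.5) and hg38, and the read counter is not given in the sources used here. The authors deposited, for 27009 genes, a signal, in which reads per gene were scaled by 1 factor per library, although it is called raw. The same table holds the authors' group means, log2 fold changes, p-values and adjusted p-values, which were not used. Samples were grouped by title. Gene coordinates are GRCh38 and equal those of GENCODE release 29 for 26945 of 27009 genes and for all 27 genes described.

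Each library's values were whole multiples of 1 step (1.01, 1.13 and 1.04 in vector replicates 1, 2 and 3, and 0.840, 1.01 and 0.965 in nPD-L1 replicates 1, 2 and 3) for 100% of values within 0.01 read, so whole reads were recovered. In vector replicate 1 and nPD-L1 replicate 2 the step is close to 1, yet only 9.94% of the values of vector replicate 1 were whole as deposited. limma (version 3.58.1, R 4.3.3; trend and robust moderation) was run on log2(value + 1), which understates the change of low genes, for the 15076 genes that reached 10 in 3 or more libraries, with Benjamini-Hochberg adjustment over all of them. edgeR (version 4.0.16, quasi-likelihood) and DESeq2 (version 1.42.0) on reads called 620 and 758 genes higher and 138 and 202 lower, beside 609 and 139 in limma. Tested on simulated data of 15076 genes with 3 libraries against 3, limma recovered 27.1% of 59 genes changed 1.5-fold, 77.5% of 80 genes changed 2-fold and 96.7% of 61 changed 4-fold. 3.52% of 142 calls were on unchanged genes. Every simulated gene had the same relative spread beyond counting error. These shares are therefore not the power to see such changes in the 10 genes tested, some of which varied widely between libraries. No 2 libraries agreed within sampling noise (chi-square per gene 8.35 to 49.3).

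Members and gene lists were chosen with earlier results of these data known. All 39 members are accounted for. Some results of single genes are not reported here. Values of every library are given for the 10 tested members and, from the other lists, called genes were named. FGA, FGB, FGG, KYNU, STAT3, IL6ST, CEBPD and the genes at the floor of the other lists were chosen after their values were seen. Alternatives were other scalings, filters, pseudocounts and moderation, a replicate block, fits without each library, the count models and other thresholds.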

Additional observations from a re-analysis of the deposited data

How the results depend on the processing

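Over the 10 genes tested, 0 were called higher and 0 lower at an adjusted p under 0.05 in limma, edgeR or DESeq2 under any alternative run. At an unadjusted p under 0.05 the count was 0 with all libraries, but AMBP (higher) passed in limma without vector replicate 2 and TDO2 (lower) without vector replicate 3. Of 159 values of single genes under alternatives, 147 kept their direction and 12 reversed. 3 of these came from other tools or scalings, -0.12 for SERPINA1 in edgeR and -0.12 in DESeq2, and 0.0060 for ITIH2 with a trimmed mean of M values. The other 9 came from leaving out 1 library, where the log2 fold change ranged from -0.67 to 0.019 for SERPINA6 (above 0 without nPD-L1 replicate 1), -0.036 to 0.21 for CP (below 0 without nPD-L1 replicate 2), -0.25 to 0.87 for SERPINA1 (below 0 without vector replicate 2), -0.011 to 1.13 for AMBP (below 0 without vector replicate 3), -0.18 to 0.25 for ITIH2 (above 0 without vector replicate 1 or nPD-L1 replicate 1), -0.50 to 0.24 for HPD (above 0 without vector replicate 2) and -0.091 to 0.17 for CPS1 (below 0 without vector replicate 2 or nPD-L1 replicate 3). The cause was not tested. The median log2 fold change of the genes tested ranged from -0.26 to 0.033 with each library left out, and was 0.057 over all 27 genes with no filter.

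Over all genes, the counts higher and lower were 306 and 68 with a 2-fold threshold, 1436 and 710 at an unadjusted p under 0.05, and 350 to 793 and 77 to 244 with each library left out. For same-numbered libraries, deviations from the group mean had correlations of -0.01, 0.23 and 0.13. Libraries with different numbers had -0.219 to 0.0795. These few values do not settle whether the numbers pair the libraries, and the labels do not say. With the replicate number as a block, 927 genes were higher and 258 lower, and 0 of the 10. Depth limits the 17 genes not tested, and 10 of them had at most 3 reads in every library.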
